A study of Oryzias latipes with 3 samples.

Results

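Chromosome 1 of the medaka fish Oryzias latipes carried 1132 of 24027 H3K27ac peaks and 658 of 12884 H3K4me3 peaks in whole embryos, 1790 regions of 36911 in all. A region was included if the deposited peak list of its mark placed it on chromosome 1, and no measured value entered that choice. Both marks had been profiled by chromatin immunoprecipitation and sequencing (ChIP-seq) of embryos at stage 24, raised at 26 °C, with chromatin of 600 pooled embryos in each sample. The groups were H3K27ac, with 2 samples of which 1 had a peak list, and H3K4me3, with 1 sample and 1 list. The other H3K27ac sample is not used here. No treatment was compared, and neither strain nor sex is given. Each sample pools the cells of whole embryos, so an overlap of marks does not place both on the same chromosome copy or in the same cells. Since each mark had 1 list and peaks are not replicates, no test was possible. Chromosome 1 is therefore set beside the spread of the other 23 chromosomes. The 95% intervals cover counting error only and treat peaks as independent of each other. Read depth is unknown because the lists hold no read counts.

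Trimethylation of lysine 4 on histone H3 marks promoters of genes that are transcribed or poised, while acetylation of lysine 27 marks active promoters and active enhancers. An acetylated region that lacks H3K4me3 is therefore commonly taken as a candidate enhancer, whereas a region with both marks is taken as an active promoter. In medaka, chromosome 1 is the sex chromosome pair, and its Y form differs from the X by a small segment that holds the male-determining gene dmy, a copy of the autosomal gene dmrt1. The X and Y otherwise share their genes, so most of the chromosome resembles an autosome. The lists do not separate X from Y or male from female embryos, and the segment was not located in them. Positions are 1-based in the coordinates of the lists, whose genome build is not named. In assembly ASM223467v1, from which a gene table was at hand, the last gene of chromosome 1 ends at 37.7 Mb, whereas the last peak ends at 39.9 Mb. The builds may therefore differ, but no chromosome length of that assembly was compared. Regions are given by position without gene names.

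Chromosome 1 had few acetylated regions for its length and was closer to the middle of the range for H3K4me3 when all listed peaks were counted. It had the longest span between the first and last peak of any chromosome, 39.8 Mb, against 23.2 to 36.05 Mb for the others. H3K27ac reached 28.5 peaks per Mb (95% interval 26.8 to 30.2), the rank of 3 from the lowest of 24 chromosomes. The other 23 had a median of 34.5 peaks per Mb and a range from 24.3 to 41.7. The intervals of 18 of these chromosomes lay wholly above that of chromosome 1, 4 overlapped it and 1 lay wholly below. Peaks were clumped on chromosome 1, where the variance of H3K27ac counts over 1 Mb windows was 8.64 times their mean. These intervals are therefore too narrow, and the separation of chromosomes by them may be overstated. H3K4me3 reached 16.5 peaks per Mb (15.3 to 17.9), the rank of 8 from the lowest, with a median of 18.1 and a range from 13.6 to 25.9 elsewhere. There were 1.72 H3K27ac peaks for each H3K4me3 peak (1.56 to 1.89). Only chromosome 8 had a lower ratio among the 24, 1.53, but chromosomes 17 and 24 were close, with 1.73 and 1.74. The median of the others was 1.86, which lies within the interval of chromosome 1. Acetylated sequence took up 3.38% of the span of chromosome 1 and H3K4me3 sequence 1.93%, against medians of 4.41% and 2.22% on the others. These were the ranks of 3 and 5 from the lowest. With only the higher-scoring 50% of H3K4me3 peaks, their density was 7.90 per Mb, also the rank of 5, against a median of 9.05 elsewhere.

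**Figure D1:**
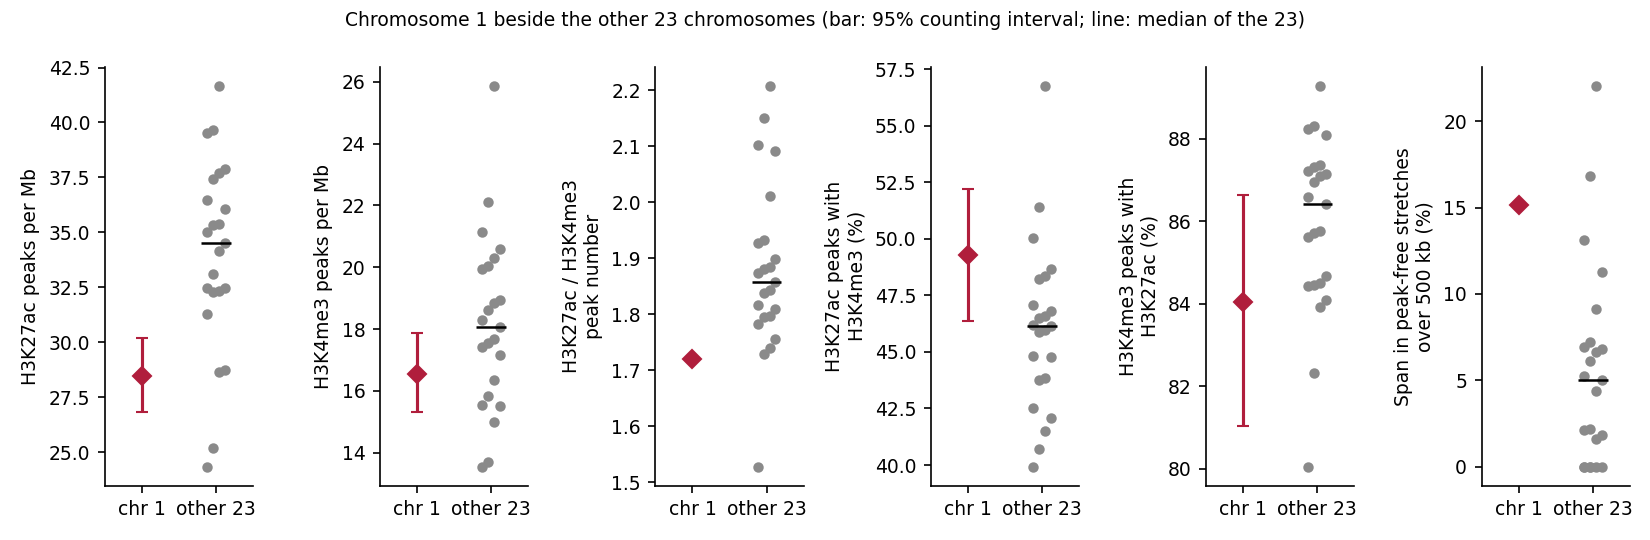
Each panel gives 1 measure for chromosome 1 (red diamond) and for each of the other 23 chromosomes (grey points, spread sideways only for legibility, with a line at their median). Bars on the diamond give the 95% counting interval of densities and overlap shares. No bar is drawn for the ratio or the peak-free span. The vertical axes of the first 5 panels do not start at 0, and the last panel gives the percentage of the span that lay in stretches of over 500 kb without a peak. Chromosome 1 lay near the low end for H3K27ac density, at 28.5 peaks per Mb, and near the high end for peak-free span, at 15.1%.

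Long stretches without either mark took up a large part of chromosome 1. Between its first and last peak, chromosome 1 had 5 stretches of over 500 kb without a peak. The other chromosomes had 0 to 4, over shorter spans. The shortest of the 5 measured 536 and 508 kb, close to the limit. Over 1 Mb, chromosome 1 had 2 of 13 stretches, which lay on 8 chromosomes. The 5 stretches of over 500 kb summed to 6.02 Mb, or 15.1% of the span. That share was exceeded on 2 other chromosomes, the highest being 22.1% on chromosome 2. With such stretches left out on every chromosome, chromosome 1 had 33.5 H3K27ac peaks per Mb, the rank of 6 from the lowest, and 19.5 H3K4me3 peaks per Mb, the rank of 11. The medians of the others were then 35.7 and 19.7. The gap between neighbouring marked regions had a median of 12.2 kb on chromosome 1 and 11.8 kb on the other chromosomes together.

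The longest peak-free stretch between peaks ran over 2.45 Mb, from 6993935 to 9439735. It ranked 3 by length among stretches between peaks over all 24 chromosomes. Sequence before the first or after the last peak of a chromosome was not ranked, and on chromosome 2 the first peak began only at 4367914. A promoter-like pair stood at the left edge of the stretch of 2.45 Mb, with an H3K27ac score of 531 and an H3K4me3 score of 656. A weaker pair stood at its right edge, with scores of 301 and 88.7. Scores are the authors' peak caller values and rank peaks only within 1 list. The left side was thinly marked for a further distance, with 4 H3K27ac peaks and 1 H3K4me3 peak in the 500 kb before the stretch, against 18 and 8 in the 500 kb after it.

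The next stretch, of 1.85 Mb from 12395013 to 14248429, was bounded on both sides by strong promoter-like pairs. The left pair scored 1039 for H3K27ac and 2490 for H3K4me3, and the right pair 1446 and 2581. The 500 kb to its left held 20 H3K27ac and 11 H3K4me3 peaks, and the 500 kb to its right held 15 and 10. The third stretch of the chromosome, of 674 kb from 35704910 to 36379325, separated an H3K4me3 peak of score 3040 from an H3K27ac-only peak of score 80.1, which was 159 kb from the nearest H3K4me3 edge. H3K27ac-only means here an H3K27ac peak that shares no base with a listed H3K4me3 peak. A mark without a listed peak is not shown to be absent. No genome sequence was used, so the content of the stretches was not examined.

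**Figure D2:**
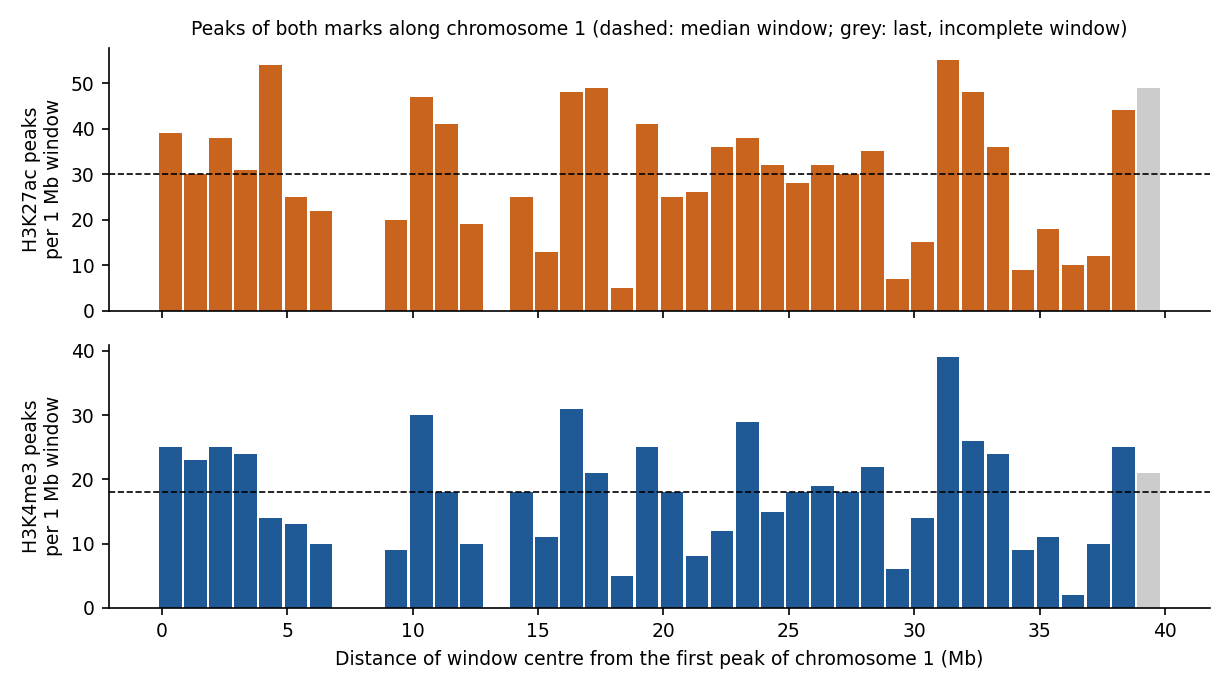
Bars give the number of H3K27ac (upper) and H3K4me3 (lower) peaks whose midpoint lay in each 1 Mb window of chromosome 1, placed by the distance of the window centre from the first peak in Mb. Dashed lines give the medians of 30 and 18 peaks over the 39 complete windows; 3 windows held no peak, and the fullest held 55 and 39.

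Along the chromosome the marks alternated between dense and thin blocks rather than changing steadily from end to end. Over 39 complete windows of 1 Mb, H3K27ac ran from 0 to 55 peaks with a median of 30, and H3K4me3 from 0 to 39 with a median of 18. The variance of the window counts was 8.64 times their mean for H3K27ac and 5.39 times for H3K4me3. The other chromosomes had medians of 5.81 and 4.92, and 2 of them exceeded chromosome 1 for H3K27ac. The 3 empty windows began at 7, 8 and 13 Mb and lay within the longest stretches described above. The fullest window for both marks was that from 31 to 32 Mb, with 55 H3K27ac and 39 H3K4me3 peaks. Of its H3K27ac peaks, 65.5% overlapped H3K4me3. Complete windows of chromosome 1 with at least 20 H3K27ac peaks had a median share of 53.2% and a highest share of 68.0%. For H3K27ac the next fullest windows were those from 4 to 5 Mb and 17 to 18 Mb, with 54 and 49 peaks. For H3K4me3 those from 16 to 17 Mb and 10 to 11 Mb followed, with 31 and 30 peaks.

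Counts of the marks rose and fell together over the windows, with Pearson's r = 0.864 (39 windows), given as a description because all windows come from the same pair of lists. It was 0.815 over the 36 windows with a peak. Over all windows, the median of r on the other chromosomes was 0.782, with a range from 0.587 to 0.917. Over windows with a peak their median was also 0.782, and the range ran from 0.266 to 0.917. When the chromosome was divided at 10, 20 and 30 Mb, the 4 parts held 259, 288, 289 and 296 H3K27ac peaks in order, and 143, 169, 165 and 181 H3K4me3 peaks. All 4 intervals overlapped for each mark. The part from 20 to 30 Mb had no peak-free stretch over 500 kb. Its longest, of 412 kb, fell below that limit. With nothing removed, the 4 parts had 26.3, 28.8, 28.9 and 29.8 H3K27ac peaks per Mb in order. For H3K4me3 they had 14.5, 16.9, 16.5 and 18.2. Removing stretches over 500 kb left the part from 20 to 30 Mb unchanged and could only raise the others, to 33.9 to 37.8 and 19.3 to 22.2. That part was then the thinnest of the 4.

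A thin block, picked out after the counts were seen, lay from 34 to 38 Mb. Its 4 windows held 9, 18, 10 and 12 H3K27ac peaks and 9, 11, 2 and 10 H3K4me3 peaks. The H3K4me3 peaks there also scored low, with window medians of 299, 259, 426 and 196, against 910 for chromosome 1 as a whole. The window medians of H3K27ac score, 205, 191, 143 and 262, lay on both sides of the median of the chromosome, 193. The next window, from 38 to 39 Mb, was again dense, with 44 H3K27ac peaks, 25 H3K4me3 peaks and a median H3K4me3 score of 1476. Low H3K4me3 scores were not confined to thin windows, since the median was 432 from 10 to 11 Mb, among 30 peaks. The median of 426 in the thin block rests on 2 peaks.

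Regions with both marks, the promoter-like class, were nearly as many as acetylated regions without H3K4me3. On chromosome 1, 558 H3K27ac peaks shared at least 1 bp with H3K4me3, which is 49.3% (46.4 to 52.2), and 574 did not. Over the other chromosomes the share had a median of 46.2% and ran from 39.9% to 56.8%, and 3 of the 23 exceeded chromosome 1. From the side of H3K4me3, 553 peaks overlapped H3K27ac, or 84.0% (81.0 to 86.6). The others had a median of 86.4% and a range from 80.1% to 89.3%, and the intervals of all 23 overlapped that of chromosome 1. The share of H3K27ac peaks with H3K4me3 was 47.5%, 50.3%, 48.4% and 50.7% in the 4 parts from low to high coordinates, with intervals that all overlapped. For H3K4me3 peaks with H3K27ac the 4 shares were 83.9%, 84.6%, 84.2% and 83.4%, again with overlapping intervals.

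Marks of a promoter-like region were nearly concentric. Of the overlaps, 542 were one-to-one, and the distance between the midpoints had a median of 94.0 bp and an upper quartile of 184 bp. H3K4me3 extended past H3K27ac at both ends in 38.0% of pairs, and the opposite held in 13.5%. H3K27ac was displaced towards higher coordinates in 21.96% and towards lower coordinates in 25.8%. The medians of these 4 shares on the other chromosomes were 38.4%, 14.7%, 23.03% and 23.9%. Strong peaks of the marks went together, with a Spearman's rho of 0.682 between their scores across the 542 pairs, which are regions of 1 chromosome and not replicates.

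**Figure D3:**
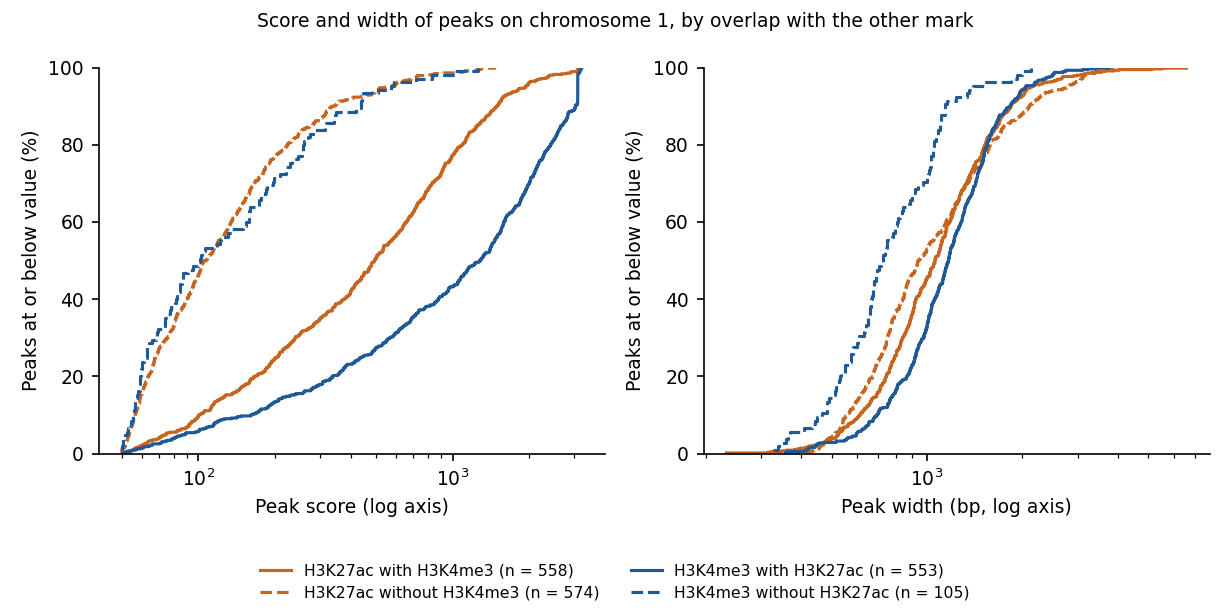
Curves give the percentage of chromosome 1 peaks at or below each score (left) and each width in bp (right), both on log axes, for H3K27ac (orange) and H3K4me3 (blue) peaks with (solid) and without (dashed) the other mark. The curves without the other mark lie to the left in score, with medians of 107 for H3K27ac and 102 for H3K4me3, and scores of different marks are not comparable.

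Peaks with both marks scored higher than peaks with 1. The median H3K27ac score was 494 with H3K4me3 (440 to 558) and 107 without (99.9 to 118). The median H3K4me3 score was 1280 with H3K27ac (1077 to 1433) and 102 without (81.9 to 158). Ranked by score in the whole list, 14.4% of chromosome 1 peaks in the lowest H3K27ac quintile and 92.3% in the highest overlapped H3K4me3, close to the 13.4% and 93.3% on the other chromosomes. In the middle quintile, where the difference was largest, the share was 41.7% (35.5 to 48.2) on chromosome 1. Elsewhere it was 35.5%, just inside that interval. All 121 H3K4me3 peaks of the highest quintile and all 133 of the next overlapped H3K27ac, where 99.8% and 99.3% did on the other chromosomes. As a whole, H3K4me3 peaks of chromosome 1 had a median score of 910 (729 to 1074), the rank of 5 from the lowest, and the intervals of 21 other chromosomes overlapped it.

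Peaks of both marks were rather narrow on chromosome 1. H3K27ac had a median width of 1014.5 bp (966 to 1059), the rank of 4 from the lowest, against a median of 1086 bp and a range from 909 to 1138 bp on the others. H3K4me3 had a median width of 1099.5 bp (1052 to 1140), also the rank of 4, against a median of 1159 bp elsewhere. For each mark the intervals of 17 chromosomes overlapped that of chromosome 1, 5 lay wholly above and 1 wholly below. The H3K27ac-only class had a median of 939.5 bp (890 to 1016), the rank of 3 from the lowest, where the others had a median of 1066.5 bp. H3K27ac peaks with H3K4me3 had a median of 1059.5 bp (1005 to 1111), at the rank of 6.

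H3K4me3 peaks that overlapped no listed H3K27ac peak were more numerous on chromosome 1 than on any other chromosome, 105 against 44 to 104. Acetylation too weak to be listed would be missed there. As a share they made up 16.0% (13.4 to 19.0), and 3 chromosomes had a higher share. They were narrow, with a median width of 724 bp against 1169 bp for acetylated H3K4me3 peaks. Of the 105, 101 fell in the lowest 2 quintiles of H3K4me3 score. They were spread over 33 of the windows with at most 6 in any window. Their median distance to the nearest H3K27ac edge was 7.34 kb, and 43 were over 10 kb away. The strongest, at 31628932 to 31629948, had a score of 1263 and lay 5.32 kb from H3K27ac, in the fullest window of the chromosome. The next were at 18246275 to 18247294, with a score of 1018, and at 23298495 to 23299637, with a score of 829. A peak at 2257341 to 2257876, only 536 bp wide with a score of 716, was 32.6 kb from any listed H3K27ac peak. The fifth, at 22142392 to 22143527, scored 588.

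H3K27ac-only regions, called enhancer-like here only because no listed H3K4me3 peak overlapped them, mostly lay within 100 kb of H3K4me3. The median distance between midpoints was 16.5 kb (15.0 to 19.3), the rank of 4 from the lowest, against a median of 20.04 kb and a range from 13.95 to 29.0 kb on the others. The intervals of 18 chromosomes overlapped that of chromosome 1 and 5 lay wholly above it. With only the higher-scoring 50% of each list the distance was 29.0 kb on chromosome 1, the rank of 12 of 24. The median of the others was then 29.3 kb. That setting also thins the H3K4me3 peaks and admits H3K27ac peaks whose only overlap was with a weaker H3K4me3 peak. The change in rank therefore cannot be assigned to the strength of the H3K27ac-only peaks. Of the 574 regions, 64 lay within 5 kb of H3K4me3, 256 at 5 to 20 kb, 229 at 20 to 100 kb and 25 beyond 100 kb. Whether the 64 are enhancers or flanks of promoters was not tested. The class at 5 to 20 kb made up 44.6%, against a median of 40.3% on the others. The most remote, at 21791382 to 21792950, had an H3K4me3 edge 244 kb away and a score of 150. Another remote region, at 6755533 to 6756397, was 236 kb from H3K4me3, in the thinly marked sequence before the longest peak-free stretch.

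H3K27ac-only regions were spread unevenly over the intervals between neighbouring H3K4me3 peaks, which differed greatly in length. Of 657 such intervals, 407 held no H3K27ac-only region, or 61.9%, against a median of 60.6% on the other chromosomes. These empty intervals had a median length of 12.02 kb but, with some very long ones among them, took 37.9% of the summed length. The 31 that held 5 or more had a median length of 134 kb, took 13.4% of the summed length and contained 200 of the 574 regions, or 34.8%. The other chromosomes had a median of 38.2% of their regions in intervals with 5 or more, ranging from 24.2% to 54.5%. The 105 intervals over 100 kb took 62.6% of the length and held 45.6% of the regions, and 25 of the 105 held none. The interval with most, 13, spanned 270 kb from 32568279 to 32838631, where the median score was 139 and the highest 279. Intervals of 170 kb from 4567820 to 4738023 and of 148 kb from 4863246 to 5010752 held 11 each. The fullest interval on the other chromosomes held from 9 to 31.

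The window from 4 to 5 Mb held the most H3K27ac-only regions of any complete window of chromosome 1. It had 54 H3K27ac peaks and 14 H3K4me3 peaks, a ratio of 3.86 (2.16 to 6.89), and the window just before it, from 3 to 4 Mb, held 31 and 24. H3K27ac-only regions made up 40 of the 54, or 74.1% (61.1 to 83.9), and all 14 H3K4me3 peaks were acetylated. The block depended on where the window was placed, with a ratio of 2.0 for a window starting 500 kb earlier and 2.94 for one starting 500 kb later. The intervals do not cover the choice of this window by its counts, and 2.0 falls below the interval of the ratio. Only 3 windows of chromosome 1 with at least 20 H3K27ac peaks had a ratio of 3 or more, those from 4 to 5, 21 to 22 and 22 to 23 Mb. Both limits were chosen after the ratios were seen. The window from 36 to 37 Mb, left out by the limit of 20, had the highest ratio of the chromosome, 5.0, from 10 H3K27ac and 2 H3K4me3 peaks, and 8 of the 10 were without H3K4me3. Windows with a ratio of 3 or more made up 11.1% of the 27 with at least 20 H3K27ac peaks on chromosome 1 and 12.5% of 553 on the other chromosomes. With 40 H3K27ac-only regions, the window from 4 to 5 Mb was 1 of 19 with at least 40 among 709 windows in the genome.

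**Figure D4:**
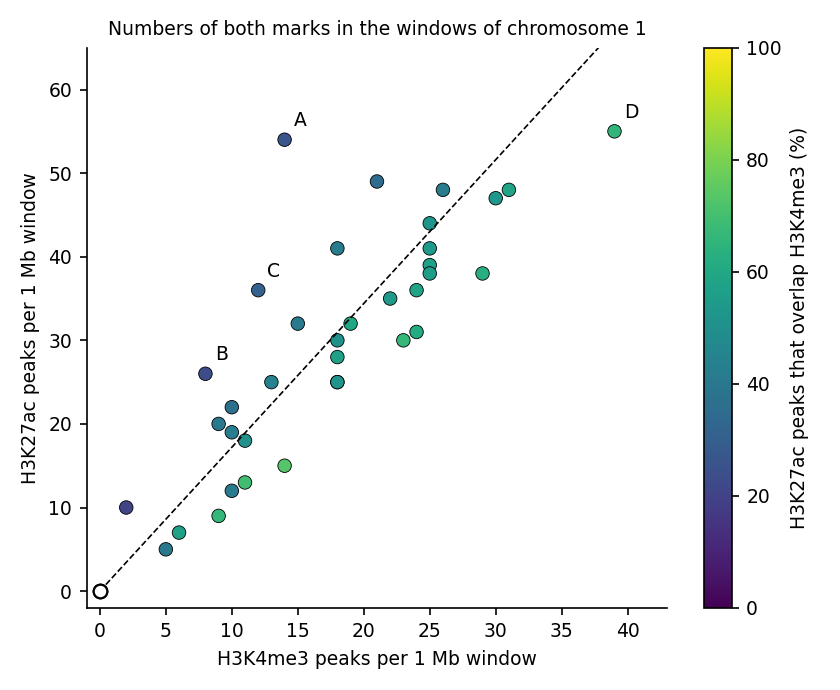
Each point is 1 complete 1 Mb window of chromosome 1, by its number of H3K4me3 peaks (horizontal) and H3K27ac peaks (vertical), coloured by the percentage of its H3K27ac peaks that overlap H3K4me3; the open point stands for the 3 windows without peaks, and the dashed line has the slope of the whole chromosome, 1.72. Point A is the window from 4 to 5 Mb, B that from 21 to 22 Mb, C that from 22 to 23 Mb and D that from 31 to 32 Mb; A, B and C lie above the line, with overlaps of 25.9%, 23.1% and 30.6%. The unlabelled point at 2 H3K4me3 and 10 H3K27ac peaks, the window from 36 to 37 Mb, has the lowest overlap of the windows with peaks, 20% of 10.

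Several of the named regions fell in this window. The widest H3K4me3 peak of the chromosome, 3760 bp at 4564060 to 4567819 with a score of 1964, lay there inside an H3K27ac peak of 4039 bp at 4563998 to 4568036. That H3K27ac peak had a modest score, 184, and was the fifth widest of its mark on the chromosome. No other H3K4me3 peak lay within 50 kb, while 6 H3K27ac-only regions did. The strongest H3K27ac-only region of the chromosome lay further along, at 4901068 to 4903849, 2782 bp wide with a score of 1465 and 37.8 kb from H3K4me3. It was 1 of 7 regions of the largest cluster of H3K27ac-only peaks, formed by joining those with edges up to 10 kb apart, which spanned 50.9 kb from 4868322 to 4919264. The other 6 regions of the cluster, measuring 973 to 1710 bp, scored between 80.9 and 180. Both neighbouring strong regions, at 4841487 to 4843686 and 4954952 to 4957199, scored 1095 and 1117. These were picked out after their values were seen, among 8 H3K27ac-only regions of chromosome 1 with a score above 1000. The 8 made up 1.39% of the class on chromosome 1, against 0.768% on the other chromosomes. This share rests on 8 regions, of which 3 lay in this window, and no interval was computed for it.

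**Figure D5:**
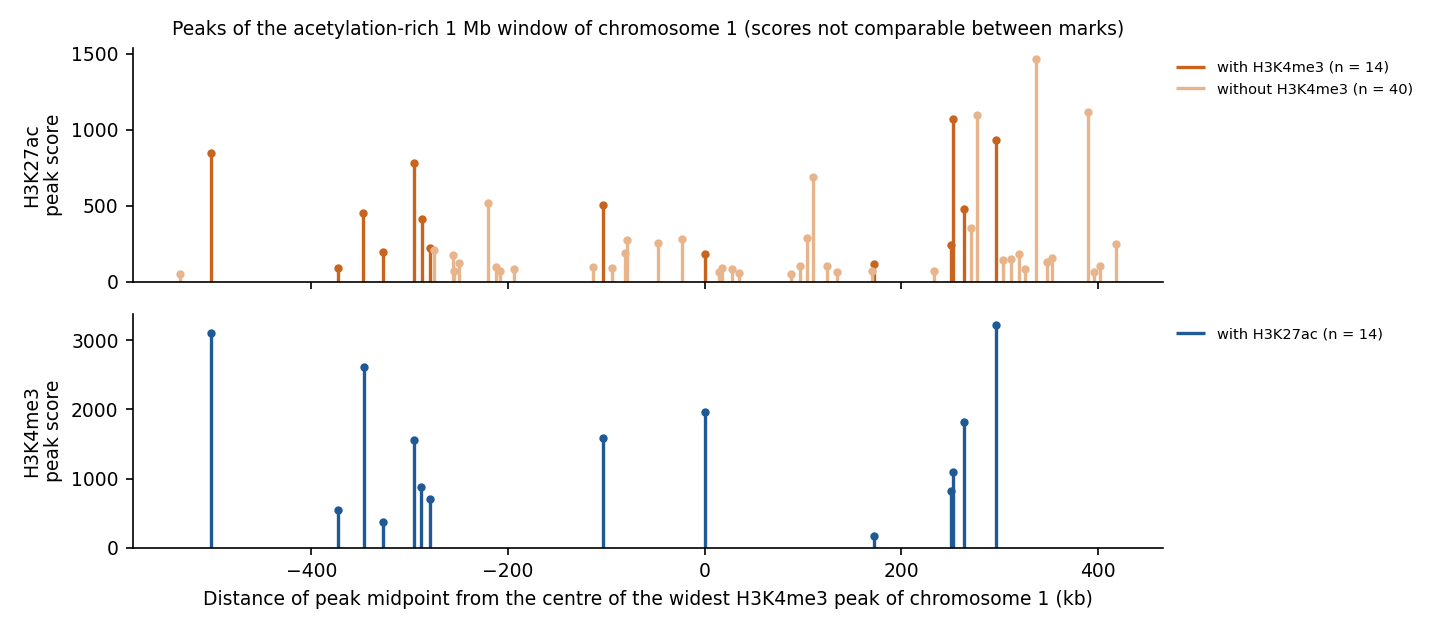
Lines give the score of each H3K27ac peak (upper; dark with H3K4me3, light without) and each H3K4me3 peak (lower) between 4 and 5 Mb on chromosome 1, placed by the distance of the peak midpoint from the centre of the widest H3K4me3 peak in kb. The 40 light lines outnumber the 14 dark ones, and the highest light line, 1465, belongs to the largest cluster.

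Most clusters of H3K27ac-only regions held few peaks. Of 403 clusters, 301 were single peaks and 7 held 5 or more, with 39 peaks or 6.79% of the class (5.01 to 9.15). The others had a median of 7.60%, ranging from 2.08% to 12.1%. The clusters depended on the gap of 10 kb over which peaks were joined: none held 5 peaks with a gap of 5 kb, 16.03% of the class lay in such clusters with 20 kb, and 3.65% did after peaks up to 2 kb apart were merged. The interval treats the 39 peaks as independent although they came in 7 clusters, so it is too narrow. It also does not cover this choice of gap. The standing of chromosome 1 also moved with it. At 10 kb the share had the rank of 9 from the lowest of 24 chromosomes, and after merging the rank of 5. At 20 kb it had the rank of 2, where the others had a median of 25.9% and a range from 14.6% to 34.0%. A cluster of 6 at 32649757 to 32690363 was the farthest of the 7 from H3K4me3, at 81.5 kb, and lay in the 13-region interval described above. Another of 6, at 38435147 to 38460619, lay in the same 1 Mb window as the fourth strongest H3K27ac-only region, at 38415820 to 38417205 with a score of 1251. Of the clusters of 5, that at 6229199 to 6248002 contained the H3K27ac-only region with the score of 1284, the rank of 3 in its class, at its left edge. The remaining clusters of 5 began at 17754465, 26483084 and 35610819, and each contained 1 H3K4me3 peak between its members. The fifth strongest H3K27ac-only region, at 25339994 to 25342276, scored 1242 and belonged to none of the 7 clusters.

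Broad acetylation occurred both with and without a broad H3K4me3 core. The widest H3K27ac and H3K4me3 peaks of chromosome 1 ranked 19 and 22 by width in their whole lists. Of the 100 widest H3K27ac peaks in the genome, 2 lay on chromosome 1, which held 4.71% of that list. Of the 100 widest H3K4me3 peaks, 4 did, where it held 5.11%. The widest H3K27ac peak, 6605 bp at 32012541 to 32019145 with a score of 166, was covered by H3K4me3 over only 17.9% of its length. Beside it, 7.75 kb from H3K4me3, lay the second strongest H3K27ac-only region, at 32023948 to 32027045 with a score of 1302. Within 50 kb of the centre of the widest peak there were 10 H3K27ac peaks, itself included, and 7 H3K4me3 peaks. The next widest, 5520 bp at 19870063 to 19875582, scored 961 and was covered over 49.5%. The third, 5123 bp at 14580388 to 14585510 with a score of 835, overlapped no H3K4me3 peak, and its edge was 8.67 kb from the nearest. The fourth, 5119 bp at 39579660 to 39584778, was covered over 32.8%. Among broad H3K4me3 peaks, that of 3407 bp at 36539719 to 36543125 stood in the thin block and was acetylated over 42.6%. The peaks of 3218 bp at 1051825 to 1055042 and 3104 bp at 341723 to 344826 were acetylated over 80.2% and 40.6%. That of 2743 bp at 20750082 to 20752824 had a score of 3100, a value that 39 H3K4me3 peaks of chromosome 1 share, and was acetylated along its whole length.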

How the data were processed

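Peak lists of 1 H3K27ac and 1 H3K4me3 sample were used. Alignment was with Bowtie, per the submitters' processing notes. The peak names in the deposited lists contain MACS, a peak caller. Neither its version nor its settings, the genome build, pooling or a control library are stated in the labels or lists. The deposited score of each peak is the authors' value, with smallest values of 50.0 and 50.01 for H3K27ac and H3K4me3, and its meaning is not stated. All peaks were kept. An overlap needed 1 bp, and bedtools 2.31.1 gave the same counts as an array routine on chromosome 1. Density was taken over the span from the first to the last peak of either mark. Windows of 1 Mb started at the first base, and a peak belonged to the window of its midpoint. Shares carry Wilson, peak numbers exact Poisson and medians order-statistic 95% intervals; the interval of a ratio of peak numbers comes from the Wilson interval of the share of H3K27ac among both. Named were the 5 widest peaks of each mark, the 5 strongest without the other mark, the 5 largest clusters, the 3 fullest and emptiest windows and the 3 longest peak-free stretches, with ties by position; windows are named from these and from their ratios, and all 7 clusters of 5 or more are given. Members, measures and rules were chosen with earlier results of these data known. Values were computed with SciPy 1.17.1, pandas 2.3.3 and NumPy 2.4.6 under Python 3.11.15 and drawn with matplotlib 3.10.9. The code was checked on simulated intervals of known overlap and clustering.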

Additional observations from a re-analysis of the deposited data

How the results depend on the processing

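Of 28 alternatives planned for chromosome 1, 11 left the value unchanged or within its counting interval, 17 moved it and 0 reversed it. Densities, shares and widths have no direction. The longest peak-free stretch has no counting interval and stayed at 2.45 Mb with the top 50% of both lists. H3K27ac density, 28.5 peaks per Mb, was 33.5 without peak-free stretches over 500 kb, 14.1 for the top 50% by score and 25.6 with peaks up to 2 kb apart merged. H3K4me3 density, 16.5, was 19.5 and 7.90 under the first 2 of these. The rank of H3K27ac density from the lowest was 3 for the top 50% and for merged peaks, and 7 for the top 50% without those stretches. For H3K4me3 density the ranks under these settings were 5, 8 and 10 in that order. With the top 50% of both lists, 52.5% of H3K27ac and 93.9% of H3K4me3 peaks overlapped the other mark, and with an H3K27ac list of equal length 72.7% and 67.2% did. For the top 50%, median widths were 1249 and 1318.5 bp, the fullest windows held 33 and 22 peaks, and H3K27ac-only regions lay 29.0 kb from H3K4me3. Clusters of 5 or more took 6.79% of H3K27ac-only regions, but 0% when joined over 5 kb, 16.03% over 20 kb and 3.65% after merging; a smaller gap or merging leaves fewer peaks to join. The rank of this share from the lowest was 9 as reported, 2 over 20 kb and 5 after merging. Some of the other moves also follow from the settings themselves. Keeping the top 50% or merging peaks lowers densities and window counts, and leaving out peak-free stretches raises densities. An H3K27ac list cut to equal length can only lower the share of H3K4me3 peaks that overlap it. The cause of the remaining changes was not tested. The ratio of 3.86 from 4 to 5 Mb was 2.88 for the top 50%; the alternatives for this window were chosen after the data had been seen. No paired analysis was possible because there was 1 list per mark. Read depth is unknown.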

Other observations

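Some H3K4me3 peaks of chromosome 1 stood almost edge to edge. Of 657 neighbouring pairs, 41 were under 2 kb apart and 459 under 50 kb. The closest pair was 56 bp apart, at 11781877 to 11783109 and 11783166 to 11784224, with scores of 1993 and 1549. The next pair, 69 bp apart, joined a peak of score 358 at 19304608 to 19305312 with one of score 1614 at 19305382 to 19306612. Of the 658 H3K4me3 peaks, 12.5% had another within 2 kb, against a median of 13.0% on the other chromosomes, and 11.9% had none within 50 kb, against 10.4%.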
